A study of Mus musculus with 6 samples.

Results

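The genes described are 35 genes of the oligodendrocyte lineage, from the precursor cell to the cell that wraps axons in myelin, measured in the hippocampus of Ahr-KO and wild-type mice. They were taken from a written list of precursor and myelin genes and not by their values, though the list was chosen with earlier results of these data known. A gene counted as measured where the platform annotation gave a probe set its symbol and no other, which held for 34 of the 35, among 22180 genes in all. Trf, which encodes the iron carrier transferrin, had a probe set annotated to several genes and is given no value. Of the 34, 7 are precursor and lineage genes and 27 are genes of myelin and of the myelinating cell.

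The Ahr-KO group had 3 arrays of hippocampi from knockout mice of Ahr, the gene for the aryl hydrocarbon receptor. The wild-type group had 3 arrays of hippocampi from mice with the intact gene. Each array came from a separate mouse by its label. Age, strain, sex, the form of the Ahr allele and any restriction of the knockout to certain cells are not stated in the labels. Signals are RMA values on a log2 scale, so that a difference of 1 is a doubling. The RNA came from whole dissected hippocampi, and in such bulk RNA fewer cells of a type and less RNA per cell cannot be told apart. Signals of different probe sets have no common scale, so each gene is compared only with itself across arrays.

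Oligodendrocytes arise from precursor cells that divide, carry the receptor for platelet-derived growth factor and are spread throughout the hippocampus. The transcription factors Olig1, Olig2, Sox10 and Nkx2-2 set up the lineage, and the factor Myrf later switches on the genes for the myelin sheath, a stack of membrane rich in galactolipids and held together by a small set of abundant proteins. In the hippocampus myelin lies mainly in the alveus, the fimbria and the layers crossed by entering axons. The aryl hydrocarbon receptor is a ligand-activated transcription factor that binds DNA together with ARNT at sites with the core GCGTG.

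The targeted gene, Ahr, read 6.62, 6.91 and 6.74 log2 in Ahr-KO and 7.68, 7.50 and 7.44 in wild type, without overlap, and the probe set may lie outside the part the allele lacks. Its difference was -0.78 ± 0.10 (SE; limma unadjusted p = 4.33e-05, adjusted p = 0.320). Median signals of the 6 arrays lay between 5.79 and 5.85 log2. All 6 markers of hippocampal neurons lay above the median level of the genes tested. Prox1 of dentate granule cells read 9.78 to 10.02 log2 on the Ahr-KO arrays and 9.48 to 9.79 on the wild-type arrays, and C1ql2, also of granule cells, 9.41 to 9.56 in Ahr-KO and 9.23 to 9.49 in wild type. Wfs1, a marker of CA1 pyramidal cells, read 9.75, 10.45 and 10.16 log2 in Ahr-KO and 10.72, 10.17 and 10.59 in wild type, lowest on Ahr-KO 1. Grik4, a kainate receptor subunit of CA3 cells, read 9.19, 8.67 and 8.90 log2 in Ahr-KO and 8.70, 9.15 and 8.69 in wild type, highest on Ahr-KO 1. Fibcd1 and Bok differed by 0.16 and 0.22, and none of the 6 passed limma's adjusted p. Each of the 34 oligodendrocyte genes lay above the median level of the genes tested, 6.50 log2, so a filter at that level removed none of them. RMA gives every probe set a value above 0, so a marker cannot be read as absent. Array Ahr-KO 1 stood apart from the other 5 for the oligodendrocyte genes, and arrays Ahr-KO 1 and wild-type 2 stood apart for genes of the choroid plexus. Results that rest on Ahr-KO 1 are therefore given with and without it. The array was singled out by these same genes, so values without it are a description and no test of genotype.

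No oligodendrocyte gene differed between the genotypes past the threshold. Under limma with Benjamini-Hochberg adjustment over all 22180 genes, 0 of the 34 passed an adjusted p of 0.05, as did 0% of all genes, and their adjusted p-values ran from 0.806 to 0.997. At an unadjusted limma p under 0.05 there was 1 gene, Ermn, with a lower mean in Ahr-KO, where 6.18% of all genes reached that level, 2.65% with a lower and 3.53% with a higher mean. The mean was higher in Ahr-KO for 14 genes and lower for 20, with differences (Ahr-KO minus wild type, log2) between -0.34 and 0.14. The median difference was 0.02 over the precursor and lineage genes and -0.03 over the myelin genes, against 0.00 over all genes tested. Values of the genotypes did not overlap for 1 gene of the 34, Ninj2, with lower values in Ahr-KO, where 11.9% of all genes showed no overlap and 5.75% did so with lower values in Ahr-KO. Both counts were near or below the share of all genes. The targeted gene Ahr, at a limma adjusted p of 0.320, did not pass either, so not passing does not show that a gene was unchanged.

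**Figure D1:**
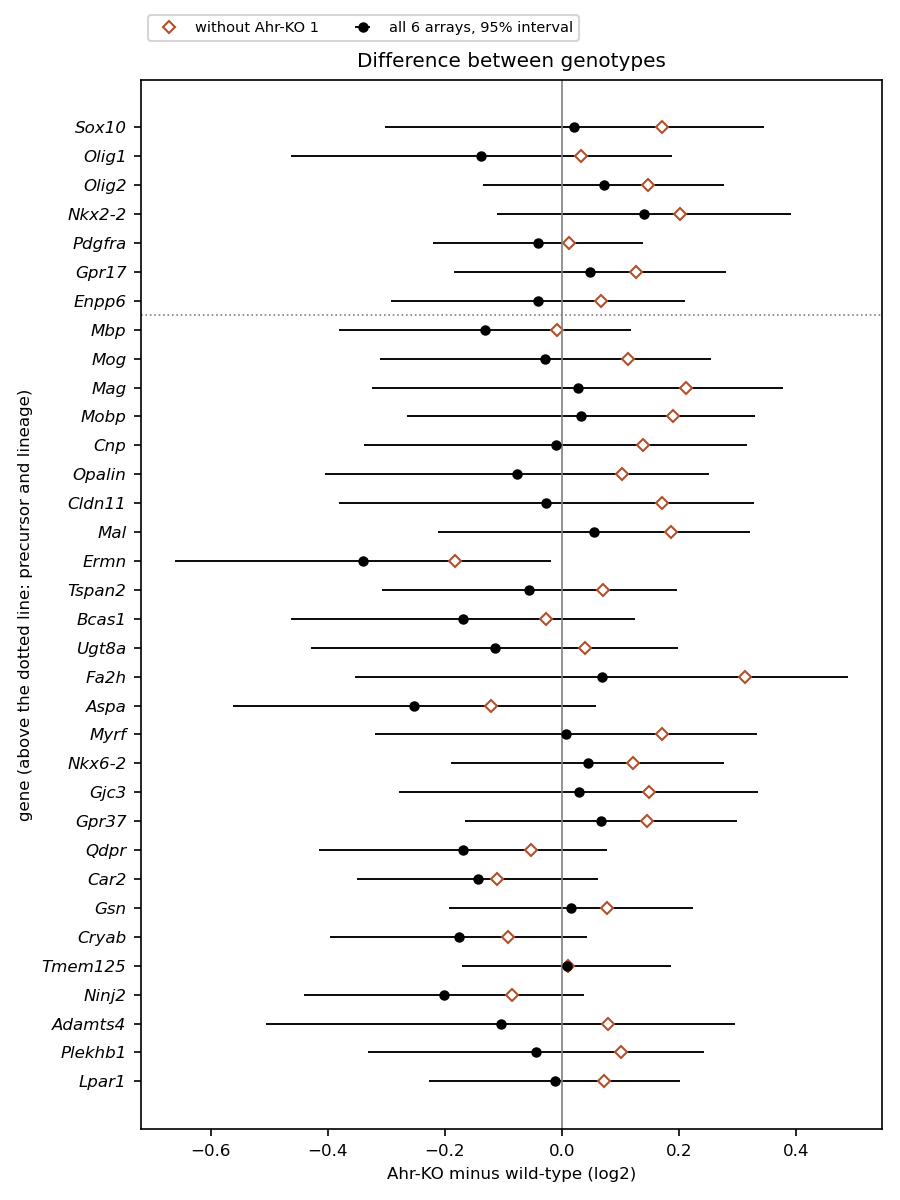
Differences between genotypes for the 34 measured genes, Ahr-KO minus wild type on the log2 scale (horizontal axis), with filled points and 95% intervals from limma on all 6 arrays and open diamonds for the difference without array Ahr-KO 1. The interval of Ermn alone lies wholly below 0, and without Ahr-KO 1 26 of the 34 differences are above 0.

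The factors that set up the lineage differed by less than their spread between arrays. Olig1, a basic helix-loop-helix factor of the whole lineage, read 9.14, 9.74 and 9.57 log2 on the 3 Ahr-KO arrays and 9.68, 9.62 and 9.56 on the 3 wild-type arrays. The value of Ahr-KO 1 was the lowest and that of Ahr-KO 2 the highest, so the genotypes overlapped. The difference was -0.14 ± 0.14 (SE), with a 95% interval from -0.46 to 0.19, and 0.03 without Ahr-KO 1. Its paralogue Olig2, needed to specify the lineage, averaged 9.49 ± 0.14 log2 in Ahr-KO and 9.42 ± 0.05 in wild type (SD, n = 3 each). Sox10, which the cells keep from precursor to myelin stage and which acts on myelin gene enhancers, averaged 7.54 ± 0.30 and 7.52 ± 0.07 log2 in Ahr-KO and wild type (SD, n = 3 each). Nkx2-2, a homeodomain factor that promotes differentiation, had the largest positive difference of the 34 genes, 0.14 ± 0.11 (SE). Its Ahr-KO arrays read 6.62, 6.98 and 6.63 log2 and its wild-type arrays 6.69, 6.58 and 6.54, so Ahr-KO 2 was the highest and the other Ahr-KO arrays lay within the wild-type range.

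The genes of the precursor stage overlapped between the genotypes. Pdgfra, the receptor for platelet-derived growth factor that marks precursor cells, read 9.04, 9.17 and 9.21 log2 in Ahr-KO and 9.13, 9.19 and 9.22 in wild type. All 6 values lay within 0.188 log2, the smallest range of the 34 genes, and the genotypes overlapped. The difference of -0.04 had a 95% interval from -0.22 to 0.14. Gpr17, a receptor of precursors that are committing to differentiate, averaged 8.73 ± 0.15 log2 in Ahr-KO and 8.68 ± 0.12 in wild type (SD, n = 3 each). Enpp6, a choline phosphodiesterase of newly forming oligodendrocytes, averaged 7.35 ± 0.21 and 7.39 ± 0.04 log2 in Ahr-KO and wild type (SD, n = 3 each).

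Among the 11 genes for proteins of the sheath and its membrane, the mean was lower in Ahr-KO for 8 and higher for 3. Mobp, a small basic protein of compact myelin, read 11.14, 11.59 and 11.63 log2 in Ahr-KO and 11.35, 11.47 and 11.43 in wild type. One Ahr-KO array lay below all wild-type arrays and the other two lay above them. Mbp, the basic protein that holds the cytoplasmic faces of the membrane together, read 9.41, 9.77 and 9.79 log2 in Ahr-KO against 9.81, 9.80 and 9.74 in wild type, a difference of -0.13 ± 0.11 (SE) that was -0.01 without Ahr-KO 1. Cldn11, the tight-junction claudin of the sheath, read 10.73, 11.38 and 11.26 log2 in Ahr-KO and 11.18, 11.17 and 11.10 in wild type. Here too the wild-type arrays lay between the lowest Ahr-KO array and the other Ahr-KO arrays.

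Mag and Mog are adhesion proteins of the innermost and outermost myelin surfaces. Mag differed by 0.03 (95% interval -0.32 to 0.38) and Mog by -0.03 (-0.31 to 0.25). Cnp, the nucleotide phosphodiesterase that keeps cytoplasmic channels in myelin open, differed by -0.01 (-0.34 to 0.32), and Mal, a proteolipid of myelin membrane rafts, by 0.05 (-0.21 to 0.32). Opalin, an oligodendrocyte membrane glycoprotein, differed by -0.08 (-0.40 to 0.25) and the tetraspanin Tspan2 by -0.06 (-0.31 to 0.20). None of these intervals excluded 0.

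Ermn, which encodes ermin, an actin-binding cytoskeletal protein of mature oligodendrocytes, had the lowest p of the 34. It read 8.84, 9.22 and 9.40 log2 in Ahr-KO and 9.36, 9.56 and 9.56 in wild type. Ahr-KO 3 lay just above wild-type 1, so the genotypes overlapped, and the other Ahr-KO arrays lay below all wild-type arrays. The difference was -0.34 ± 0.14 (SE), or 0.790-fold, with an unadjusted limma p of 0.0404 and an adjusted p of 0.806. Without Ahr-KO 1 the difference was -0.18 ± 0.10 (SE; limma unadjusted p = 0.121). Bcas1, a marker of oligodendrocytes that are starting to myelinate, averaged 7.59 ± 0.25 log2 in Ahr-KO and 7.76 ± 0.11 in wild type (SD, n = 3 each), and its second, dimmer probe set differed by 0.02.

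**Figure D2:**
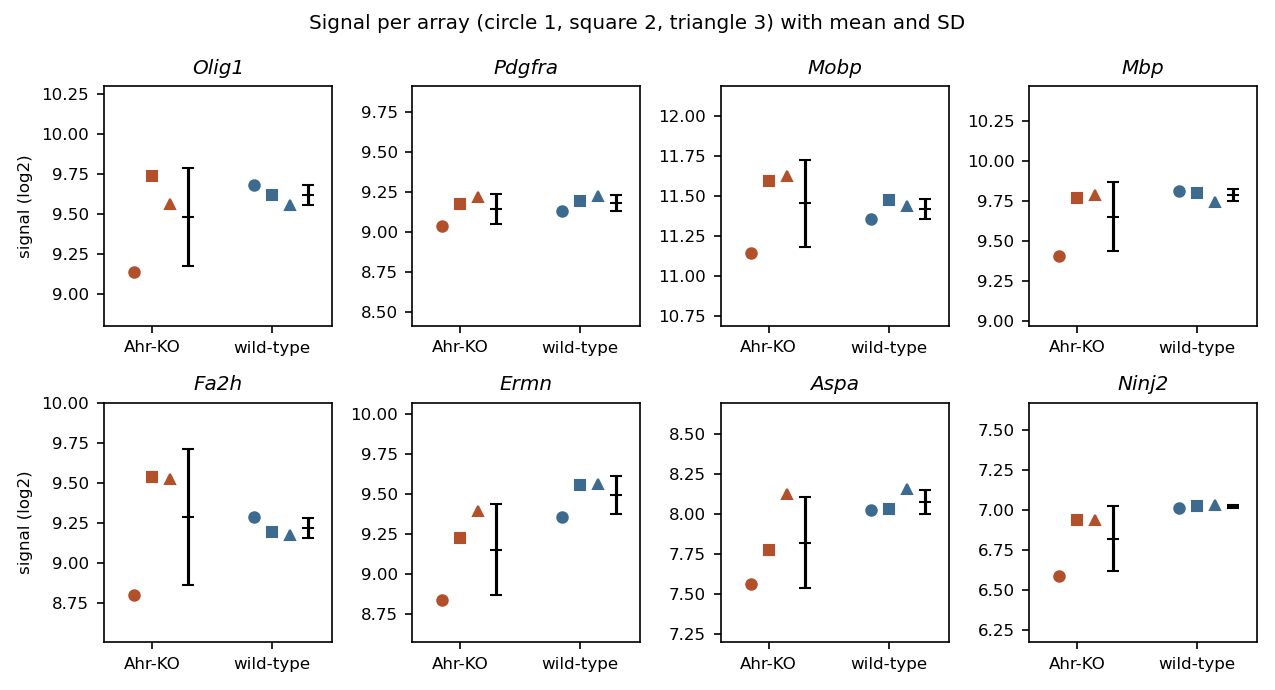
Signal per array on the log2 scale (vertical axis, spanning 1.5 log2 in each panel) for 8 genes, with Ahr-KO at the left and wild type at the right of each panel. Circles, squares and triangles are arrays 1, 2 and 3 of each genotype, and the black bars are the mean and SD of 3 arrays. Ahr-KO 1 is the lowest point in all 8 panels, and the genotypes separate fully for Ninj2 alone.

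The 3 enzymes of myelin lipid overlapped between the genotypes. Fa2h, the hydroxylase that makes the 2-hydroxy fatty acids of myelin galactolipids, had the widest range of the 34 genes, 0.742 log2. It read 8.80, 9.54 and 9.52 log2 in Ahr-KO and 9.29, 9.19 and 9.18 in wild type, so that its lowest and highest values were both Ahr-KO arrays. Its difference was 0.07 ± 0.18 (SE) on all arrays and 0.31 ± 0.08 without Ahr-KO 1. Without that array Fa2h was the 1 gene of the 34 with an unadjusted limma p under 0.05 (0.00671). In that comparison 5.95% of all genes reached this level, 3.54% with a higher and 2.4% with a lower mean. The array was left out because these genes were low on it, a choice that favours a higher Ahr-KO mean. Aspa, the aspartoacylase that frees acetate for lipid synthesis, read 7.56, 7.78 and 8.13 log2 in Ahr-KO against 8.03, 8.03 and 8.16 in wild type. Its difference was -0.25 (95% interval -0.56 to 0.06) on all arrays and -0.12 without Ahr-KO 1. Ugt8a, which makes galactosylceramide, read 9.74, 10.20 and 10.21 log2 in Ahr-KO and 10.02, 10.26 and 10.22 in wild type, a difference of -0.11 (-0.43 to 0.20).

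The regulators of the myelinating stage did not separate the genotypes. Myrf, the membrane-bound factor that drives myelin genes, read 7.87, 8.46 and 8.26 log2 in Ahr-KO and 8.29, 8.18 and 8.11 in wild type, a difference of 0.01 (95% interval -0.32 to 0.33). Nkx6-2, a homeodomain factor of myelinating cells, differed by 0.04 (-0.19 to 0.28).

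Of the 11 other measured genes of mature oligodendrocytes, 7 had a lower mean in Ahr-KO and 4 a higher one. Ninj2, the adhesion protein ninjurin 2, read 6.59, 6.94 and 6.94 log2 in Ahr-KO and 7.01, 7.03 and 7.03 in wild type. Every Ahr-KO array lay below every wild-type array, by 0.07 for the nearest pair of values. The difference was -0.20 ± 0.10 (SE; limma unadjusted p = 0.0888, adjusted p = 0.817), and -0.08 without Ahr-KO 1. Adamts4, a metalloprotease that cleaves proteoglycans, varied in both genotypes, with 6.36, 6.95 and 6.86 log2 in Ahr-KO and 6.88, 7.05 and 6.56 in wild type. Gjc3, connexin 29, read 10.47, 10.65 and 11.01 log2 in Ahr-KO and 10.61, 10.64 and 10.79 in wild type, and the genotypes overlapped.

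Cryab, a small heat shock protein, differed by -0.18 (95% interval -0.40 to 0.04), and its dimmer second probe set by 0.00. Qdpr, a pteridine reductase, differed by -0.17 (-0.42 to 0.08) and Car2, a carbonic anhydrase, by -0.14 (-0.35 to 0.06). The other 5 differences were nearer to 0. They belonged to Gpr37, an orphan receptor (0.07), Gsn, the actin-severing gelsolin (0.02), Tmem125, a transmembrane protein (0.01), Lpar1, a receptor for lysophosphatidic acid (-0.01), and Plekhb1, a pleckstrin homology protein (-0.04).

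Most of the 34 genes were lowest in the same mouse. Ahr-KO 1 held the lowest of the 6 values for 32 of the 34 genes, 6 of 7 precursor and lineage genes and 26 of 27 myelin genes, where it held the lowest value for 19.9% of all genes tested. The exceptions were Nkx2-2 and Tmem125, both lowest on wild-type 3. The highest value fell on Ahr-KO 2 for 17 genes and on Ahr-KO 3 for 5, and Ahr-KO 1 held none. The spread was accordingly wider in Ahr-KO, with a larger SD than in wild type for 32 of the 34 genes against 11085 of all 22180 genes, and a median SD of 0.24 log2 in Ahr-KO and 0.07 in wild type. Genes of one cell type measured in the same mice are not independent, so these counts describe 1 array and are no test of genotype.

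**Figure D3:**
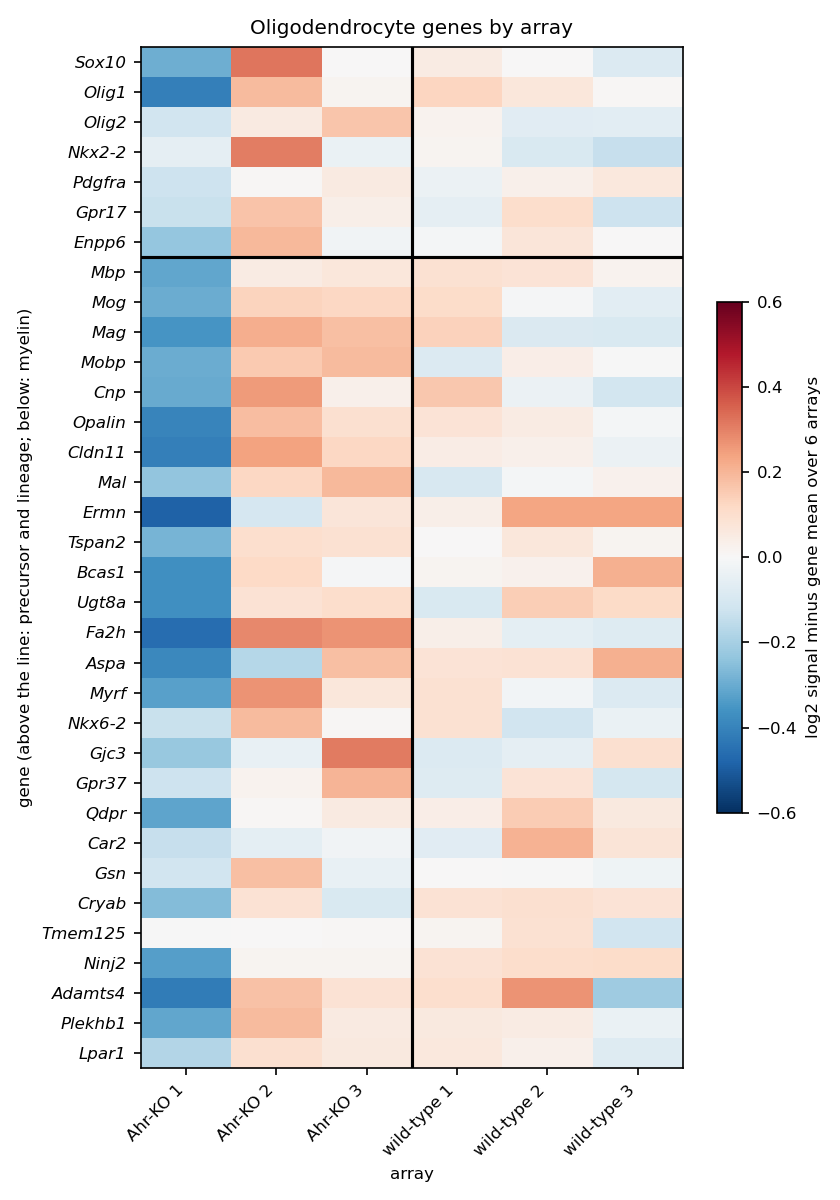
Log2 signal of each measured gene minus its mean over the 6 arrays (colour, blue below and red above the mean) for the arrays of Ahr-KO (left of the vertical line) and wild type (right). Genes of the precursor stage and lineage are above the horizontal line and myelin genes below it. On Ahr-KO 1 none of the 34 genes lies above its mean, on Ahr-KO 2 and 3 30 and 28 do, and on wild-type 1, 2 and 3 25, 23 and 15 do.

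By median, Ahr-KO 1 lay further below the other arrays for myelin genes than for precursor and lineage genes, a difference that was not tested. The signal of Ahr-KO 1 minus the mean of the other 5 arrays had a median of -0.37 log2 over the 27 myelin genes and -0.16 over the 7 precursor and lineage genes, against -0.01 over all genes. It was -0.58 for Ermn, -0.55 for Fa2h, -0.49 for Cldn11 and -0.37 for Mbp. Other myelin genes lay nearer to the other arrays, at -0.15 for Gpr37, -0.14 for Gsn and -0.001 for Tmem125, so the stages overlapped. Among the precursor and lineage genes it was -0.06 for Nkx2-2, -0.14 for Olig2, -0.15 for Pdgfra and -0.16 for Gpr17. For Enpp6, Sox10 and Olig1 it was -0.28, -0.35 and -0.49. Sox10 and Olig1 are not confined to precursors, so this list is not a readout of the precursor stage alone. Averaging each list's deviations from the 6-array means of its genes gives a score per array. The score was -0.29, 0.10 and 0.09 for the myelin genes in Ahr-KO and 0.03, 0.05 and 0.01 in wild type. For the precursor and lineage genes it was -0.19, 0.18 and 0.03 in Ahr-KO and 0.02, 0.02 and -0.05 in wild type. The 3 wild-type mice differed little from one another in either score.

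Leaving out Ahr-KO 1 turned the direction of the myelin median. Without it the median difference was 0.08 over the myelin genes and 0.13 over the precursor and lineage genes, and 26 of the 34 means were higher in Ahr-KO. The 8 that stayed lower were Mbp, Ermn, Bcas1, Aspa, Qdpr, Car2, Cryab and Ninj2. The values of the 2 remaining Ahr-KO arrays lay above all wild-type values for 9 genes, namely Olig2, Mog, Mag, Mobp, Opalin, Cldn11, Mal, Tspan2 and Fa2h, and below them for Ninj2, where 21.9% of all genes did not overlap, 11.8% above and 10.2% below. Ahr-KO 1 was singled out by its low values for these genes, so higher Ahr-KO means without it follow from that choice. The shares over all genes carry no such choice and are no fair yardstick here. With 2 arrays against 3, 0 genes passed limma's adjusted p of 0.05 among the 34 or among all genes. Leaving out Ahr-KO 2 instead put the medians at -0.14 for the myelin genes and -0.06 for the precursor and lineage genes.

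**Figure D4:**
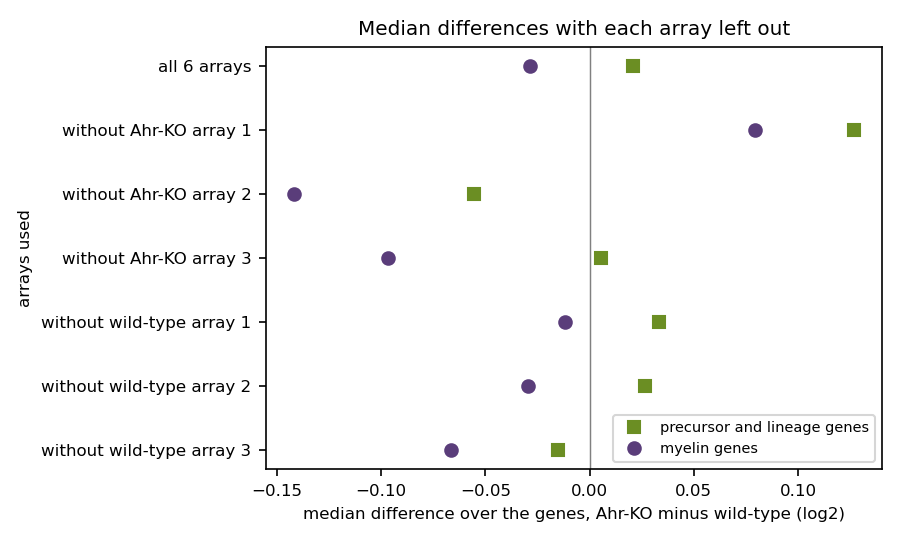
Median difference over the 27 myelin genes (circles) and the 7 precursor and lineage genes (squares), Ahr-KO minus wild type on the log2 scale (horizontal axis), with all 6 arrays and with each array left out in turn (vertical axis). The myelin median runs from -0.14 to 0.08 and lies above 0 only without Ahr-KO 1.

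Further genes of the lineage, which were not among the 35, were counted in the same way. Of 25 measured myelin genes, 24 had their lowest value on Ahr-KO 1, and their score was -0.27, 0.09 and 0.07 in Ahr-KO and 0.08, 0.04 and -0.01 in wild type. Of 14 measured precursor genes, 3 had their lowest value there, and the score of the 14 was -0.04, 0.02 and 0.01 in Ahr-KO and -0.02, 0.01 and 0.02 in wild type. Single precursor genes went both ways on Ahr-KO 1, from -0.30 log2 (Rlbp1) to 0.13 (Tnr) against the mean of the other 5 arrays. The median difference between genotypes was -0.05 for these myelin genes and 0.01 for these precursor genes, and 0.04 and 0.03 without Ahr-KO 1. None of them passed limma's adjusted p, and in each list 1 gene had a lower mean and 0 a higher one at an unadjusted p under 0.05. Over all genes 2.65% reached that level with a lower and 3.53% with a higher mean. Without Ahr-KO 1 the count was 0 lower and 1 higher among the myelin genes, and 1 lower and 1 higher among the precursor genes. The shares over all genes were then 2.4% lower and 3.54% higher. In lists of 25 and 14 genes a count of 1 cannot be told from these shares.

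On all arrays the gene among the myelin genes was Anln, the actin and septin scaffold anillin, which read 6.82, 7.29 and 7.53 log2 in Ahr-KO and 7.53, 7.78 and 7.68 in wild type, a difference of -0.45 ± 0.17 (SE; limma adjusted p = 0.797) and of -0.25 without Ahr-KO 1. Ndrg1 followed at -0.16 ± 0.09 (SE), and at -0.10 without Ahr-KO 1, where the 1 higher gene was Tmem88b (0.32 ± 0.08, SE), named after its value was seen. Among the precursor genes it was Pcdh15, a protocadherin of precursor cells, at 6.84, 6.75 and 6.74 log2 in Ahr-KO and 7.26, 7.23 and 7.08 in wild type. All Ahr-KO values of Pcdh15 lay below all wild-type values, and the difference of -0.41 ± 0.08 (SE; limma adjusted p = 0.769) was -0.44 without Ahr-KO 1. Of the 14 precursor genes, 2 had lower and 2 had higher Ahr-KO values without overlap, against 5.75% and 6.18% of all genes. C1ql1, a secreted protein of precursors, differed by 0.23 ± 0.11 (SE; limma unadjusted p = 0.0662), and by 0.34 ± 0.09 without Ahr-KO 1. C1ql1 and Tmem88b both read lower on Ahr-KO 1 than on the other Ahr-KO arrays. Leaving that array out therefore favours a higher Ahr-KO mean for them and is no test of genotype.

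Of 19 measured signals and regulators of the lineage, 7 had a higher and 12 a lower mean in Ahr-KO, with a median difference of -0.04, and 0 passed limma's adjusted p. Hes5, a Notch effector that holds cells back from differentiating, had the lowest p. It read 7.12, 7.14 and 6.84 log2 in Ahr-KO and 7.40, 7.39 and 7.29 in wild type, without overlap (-0.33 ± 0.10, SE; limma adjusted p = 0.770). Id4, a dominant-negative partner of helix-loop-helix proteins, differed by 0.18 ± 0.08 (SE), also without overlap. The list held its lowest value on Ahr-KO 1 for 3 of its 19 genes.

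**Figure D5:**
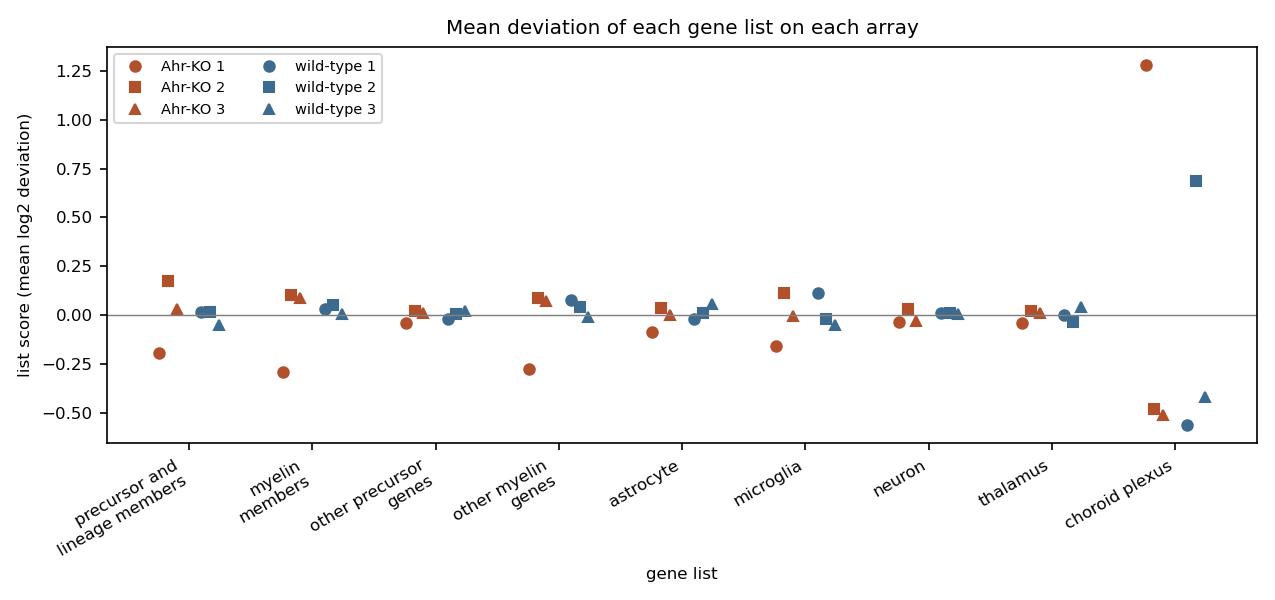
Score of each gene list on each array (vertical axis, mean over the list of the log2 signal minus the gene mean over 6 arrays), with Ahr-KO arrays at the left and wild-type arrays at the right of each list. Myelin genes are low on Ahr-KO 1 in both the main and the further list, and choroid plexus genes are high on Ahr-KO 1 and wild-type 2. For precursor genes outside the main list the score is near 0 on all arrays, though single genes lay on either side of 0.

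Markers of other cell types were set beside these scores. The 9 measured of 12 choroid plexus markers averaged 7.73, 5.97 and 5.94 log2 in Ahr-KO and 5.88, 7.13 and 6.03 in wild type. On wild-type 2, the other array with high choroid plexus genes, the myelin score was 0.05 and that of the precursor and lineage genes 0.02. The 6 measured of 7 microglial markers averaged 8.05, 8.32 and 8.20 log2 in Ahr-KO and 8.32, 8.19 and 8.16 in wild type, and 4 of the 6 were lowest on Ahr-KO 1. The 8 astrocyte markers averaged 10.10, 10.22 and 10.18 log2 in Ahr-KO and 10.17, 10.19 and 10.24 in wild type, with 5 of the 8 lowest on Ahr-KO 1. The 6 neuron markers averaged between 11.59 and 11.66 log2 in Ahr-KO and between 11.63 and 11.64 in wild type. The 10 thalamus markers averaged between 7.20 and 7.26 log2 in Ahr-KO and between 7.20 and 7.28 in wild type, but single markers went opposite ways on Ahr-KO 1. Slc17a6, Rgs16 and Prkcd were lowest there, at -0.68, -0.43 and -0.37 log2 from the mean of the other 5 arrays. Calb2, Lhx9 and Tnnt1 lay above that mean by 0.51, 0.38 and 0.25, and the rest lay between -0.10 and 0.03 of it. The 6 markers of meningeal fibroblasts, which also carry Pdgfra, had scores between -0.07 and 0.17 in Ahr-KO and between -0.11 and -0.01 in wild type, highest on Ahr-KO 1. Of 5 Schwann cell markers 3 were measured, averaging between 5.22 and 5.65 log2 in Ahr-KO and between 5.11 and 5.32 in wild type. The part of these cell types in the low values of Ahr-KO 1 was not tested.

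Promoter sequence is shown for the 3 genes with the lowest p, Ermn, Ninj2 and Aspa, because the aryl hydrocarbon receptor binds DNA. No protein was measured. Each window spans 250 bases before to 50 after a RefSeq transcript start in GRCm38.p6. The Ermn window is chr2:58052815-58053114 on the minus strand, the Ninj2 window chr6:120093130-120093429 on the plus strand and the Aspa window chr11:73324588-73324887 on the minus strand. Capitals mark GCGTG, the receptor's core, CTGGNAC, a core bound by MYRF, and ACAANG, a loose form of the core bound by SOX factors. Each was sought on either strand, and N stands for any base, so not every ACAANG match is a SOX core.
Ermn: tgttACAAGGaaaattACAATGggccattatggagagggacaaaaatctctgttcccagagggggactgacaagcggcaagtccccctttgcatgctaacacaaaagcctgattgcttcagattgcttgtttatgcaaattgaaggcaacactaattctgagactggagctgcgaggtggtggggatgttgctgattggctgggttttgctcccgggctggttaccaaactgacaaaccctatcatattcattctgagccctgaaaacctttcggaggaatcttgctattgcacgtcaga
Ninj2: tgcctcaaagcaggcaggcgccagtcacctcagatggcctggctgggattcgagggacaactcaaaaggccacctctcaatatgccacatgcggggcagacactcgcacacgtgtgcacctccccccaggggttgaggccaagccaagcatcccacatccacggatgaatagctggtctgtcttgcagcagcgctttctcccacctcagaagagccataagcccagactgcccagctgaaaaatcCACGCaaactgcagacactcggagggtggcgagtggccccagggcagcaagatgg
Aspa: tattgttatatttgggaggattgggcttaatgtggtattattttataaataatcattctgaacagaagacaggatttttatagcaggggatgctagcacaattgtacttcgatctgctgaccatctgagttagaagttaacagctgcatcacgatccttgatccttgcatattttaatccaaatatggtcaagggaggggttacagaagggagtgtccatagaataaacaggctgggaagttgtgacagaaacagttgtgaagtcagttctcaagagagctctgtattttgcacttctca
Ninj2 held 1 GCGTG core, on the strand opposite to the gene, beginning 5 bases before the start. Ermn held none and 2 ACAANG matches, and Aspa held none of the 3 motifs.

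Over the 24 of the 35 genes with a promoter window, taking the first window listed for each gene, GCGTG occurred in 11, or 45.8%, against 32.5% of 27025 genes. These 11 included Olig2, Cnp, Ugt8a, Tspan2 and Gpr37. CTGGNAC occurred in 7, or 29.2%, against 19.2% of all genes, and the 7 included Mag, Mog, Opalin and Cnp. ACAANG occurred in 11, or 45.8%, against 41.6%. A match is a stretch of letters and not a measured binding site.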

How the data were processed

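Total RNA of 6 hippocampi was isolated with Trizol and biotin-labelled with an Affymetrix WT PLUS kit, as the labels' protocols record. The authors summarised the arrays with RMA in Expression Console, per the submitters' processing notes, and deposited log2 signals. RMA normalizes arrays together, which removes overall shifts and tends to compress fold changes; no software version is named in those notes. Of 41345 probe sets, 23521 had 1 gene symbol, 1814 several and 16010 none. Symbols were updated by Entrez ID through RefSeq (GRCm38.p6), which matched 23328. The probe set with the highest mean stood for each of 22180 genes.

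Differences between genotypes were tested with limma 3.58.1, run under R 4.3.3 (lmFit, eBayes, two-sided, Benjamini-Hochberg over all genes), checked on simulated data, with 95% intervals. The 35 genes, the further lists and the tests were chosen with earlier results of these data known; the hippocampal neuron markers were added later still. Every listed gene was named, and of each further lineage list the 2 genes with the lowest p. Values on every array are given for genes with an unadjusted p under 0.1, the 3 with the widest range and examples of each role. An exact permutation test between 3 and 3 arrays has a smallest p of 0.1 and was left out. Precision is limited by having 3 arrays per genotype. No scan dates or detection calls were used. Figures were drawn with matplotlib 3.10.9.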

Additional observations from a re-analysis of the deposited data

How the results depend on the processing

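No oligodendrocyte gene passed limma's adjusted p under any of the 14 alternative fits. The count at an unadjusted p under 0.05 was 1, with Ermn as that gene, under an intensity trend, renewed quantile normalization, median centring, the filter on low genes and the mean of probe sets; it was 0 with array weights. With an array left out it ran from 0 (without wild-type 2 or 3) to 2 (Ermn and Aspa without Ahr-KO 3, Ermn and Car2 without wild-type 1), and was 1 without Ahr-KO 1 (Fa2h) or Ahr-KO 2 (Cryab). Over the 14 alternatives, between 5.06% and 7.89% of all genes tested reached that level. Genes without overlap between genotypes numbered 2 under renewed quantile normalization, median centring and the mean of probe sets, 1 (without wild-type 2) to 10 (without Ahr-KO 1) with an array left out, and 12 without Ahr-KO 1 and wild-type 2, which were high in choroid plexus genes, where the medians were 0.09 for myelin and 0.13 for precursor and lineage genes. With fewer arrays a lack of overlap is easier to reach. Over all genes its share was 11.9% on all 6 arrays and 21.9% without Ahr-KO 1. For the other settings that share was not counted, so their counts cannot be read as a trait of the 34 genes. With an array left out the myelin median ran from -0.14 (without Ahr-KO 2) to 0.08 (without Ahr-KO 1) and the precursor and lineage median from -0.06 to 0.13. These shifts were smaller than the SD of the scores in Ahr-KO (0.22 and 0.19), which includes Ahr-KO 1, and the largest exceeded the SD in wild type (0.02 and 0.04). Counting Bcas1, Myrf and Nkx6-2 with the precursor and lineage genes gave medians of 0.01 for that enlarged list and -0.04 for the remaining myelin genes. Ermn differed by -0.46 without Ahr-KO 3 and by -0.15 without the choroid plexus arrays. Of 476 single-gene values under the alternatives, 4 moved by more than the gene's SD pooled over both genotypes, which Ahr-KO 1 widens, all 4 without the choroid plexus arrays. Many of the 476 could not move. The intensity trend, the filter and a block on replicate number leave every difference as it is. The mean of probe sets can change only Bcas1 and Cryab, and median centring shifts all genes alike.

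The replicate numbers of the labels name different mice. Deviations of same-numbered arrays correlated at -0.15, -0.22 and 0.05 across genes, so the numbers were not taken as pairs. With the replicate number as a block the count at an unadjusted limma p under 0.05 was 1. Each block holds 1 array per genotype and so cannot change a difference. The medians of 0.02 for precursor and lineage genes and -0.03 for myelin genes were therefore fixed in advance.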
